A study of Arabidopsis thaliana with 6 samples.

Results

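The SIAMESE family of *Arabidopsis thaliana* comprises small plant-specific inhibitors of cyclin-dependent kinases (CDKs), the kinases that drive entry into DNA replication and mitosis. *SIM* and *SMR1* to *SMR8* were followed here, chosen by their gene identifiers as 9 of the 32998 genes in the deposited count table. Each was compared between *mdf-1* seedlings and wild type (WT). *mdf-1* carries a T-DNA insertion in an intron of *MDF*, which encodes a splicing-related protein.

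SIAMESE proteins bind CDK-cyclin complexes and hold back mitosis. Cells that express them can leave the mitotic cycle and replicate DNA without dividing, which is called endoreplication and is prominent in the leaf epidermis and in trichomes. Some members are switched on by genotoxic stress, when the transcription factor SOG1 binds their promoters and the cell cycle is slowed.

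RNA was taken from complete seedlings of *mdf-1* and of WT (accession Columbia), both 12 days old and both raised on sucrose-containing agar plates with long days, and 3 biological replicates per genotype gave 1 library each. No other allele and no treatment was applied to either genotype. *mdf-1* is a single insertion line, in which the part of *MDF* ahead of the insertion is still transcribed. The count over the whole gene was 3443, 3465 and 3465 reads in *mdf-1* and 3305, 3136 and 3435 in WT (log2 fold change 0.32, standard error 0.05, adjusted p = 5.9e-04), and therefore does not check the mutation. Reads counted on genes numbered 44738352 to 45418026 per *mdf-1* library and 47175914 to 50088386 per WT library. The first principal component separated the genotypes and took 86.5% of the variance. The second, with 5.73%, set *mdf-1* replicate 3 apart from the other *mdf-1* libraries. Because whole seedlings were sampled, fewer cells of a type and less RNA per cell cannot be told apart in any of the values below.

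All 9 members were counted in every library and passed the filter on low counts. Each has 1 annotated transcript made of 1 exon, with no intron, whereas 16.8% of the tested genes with a known structure lack introns. The annotated coding sequences run from 72 residues in *SMR4* to 128 in *SMR1*. *SMR5* is the shortest gene at 266 bases and *SMR6* the longest at 1217. In the TAIR10 genome *SIM* (AT5G04470) lies on chromosome 5 from 1266625 to 1267416, minus strand, and *SMR1* (AT3G10525) on chromosome 3 from 3281306 to 3282131, minus strand. *SMR2* (AT1G08180) lies on chromosome 1 from 2564361 to 2565318, minus strand, and *SMR3* (AT5G02420) on chromosome 5 from 523257 to 524076, plus strand. *SMR4* (AT5G02220) occupies 441452 to 442187 on the minus strand of chromosome 5. *SMR5* (AT1G07500) occupies 2304766 to 2305031 on the minus strand of chromosome 1, and *SMR6* (AT5G40460) 16202142 to 16203358 on the plus strand of chromosome 5. *SMR7* (AT3G27630) spans 10230892 to 10231567 on the minus strand of chromosome 3, and *SMR8* (AT1G10690) spans 3549920 to 3550848 on the minus strand of chromosome 1.

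The sequence ahead of the annotated gene start was searched for binding motifs. The palindromic motif bound by SOG1, CTTNNNNNNNAAG (which reads the same on both strands), was present within 250 bases upstream of *SMR4*, *SMR5* and *SMR7* and of none of the other 6 members, and 9.71% of 27443 protein-coding genes hold it in that window. Within 1000 bases, where 33.3% of genes hold it, *SIM* had a match as well. The matches ahead of *SMR5* lie within *FTSH10*, an annotated gene on the opposite strand that also limits the *SMR5* count, as given below. The 7 matches are shown because *SMR4*, *SMR5* and *SMR7*, which share the motif, did not move in the same direction in *mdf-1*. Each is printed 5′ to 3′ on the strand of its gene with the 13 bases of the motif in capitals (TAIR10 coordinates, RefSeq copy of the genome).
*SMR4*, 350 to 338 bases upstream, chr5:442517-442545, minus strand: caaagggaCTTGCTGCGCAAGttcgcgcc
*SMR4*, 86 to 74 bases upstream, chr5:442253-442281, minus strand: agaaagagCTTCGTGAGAAAGattccttt
*SMR5*, 420 to 408 bases upstream, chr1:2305431-2305459, minus strand: ttgagctgCTTGGGAACCAAGacatcaac
*SMR5*, 96 to 84 bases upstream, chr1:2305107-2305135, minus strand: cctagcaaCTTCCAGAACAAGctacggtc
*SMR5*, 32 to 20 bases upstream, chr1:2305043-2305071, minus strand: ttaagaacCTTATTAGGAAAGtgcgagag
*SMR7*, 43 to 31 bases upstream, chr3:10231590-10231618, minus strand: ctaataatCTTCCTCTGAAAGcttcattc
*SIM*, 654 to 642 bases upstream, chr5:1268050-1268078, minus strand: atttgattCTTCTTTTTTAAGtggatgta

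A match is a run of letters and not a measured binding site. The 250 bases ahead of *SMR4* and *SMR7*, which overlap no other annotated gene, are given whole because these genes were up-regulated and carry the motif near their start.
*SMR4*, chr5:442188-442437, minus strand: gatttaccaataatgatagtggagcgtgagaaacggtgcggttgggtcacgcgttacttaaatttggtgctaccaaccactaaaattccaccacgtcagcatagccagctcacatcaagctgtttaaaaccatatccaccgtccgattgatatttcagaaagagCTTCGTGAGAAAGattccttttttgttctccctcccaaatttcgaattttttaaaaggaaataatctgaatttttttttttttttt
*SMR7*, chr3:10231568-10231817, minus strand: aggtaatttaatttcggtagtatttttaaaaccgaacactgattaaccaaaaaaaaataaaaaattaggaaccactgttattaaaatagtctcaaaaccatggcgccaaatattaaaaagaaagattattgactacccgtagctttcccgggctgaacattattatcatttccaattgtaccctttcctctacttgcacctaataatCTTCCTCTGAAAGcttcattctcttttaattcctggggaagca

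A second motif marked *SMR6*. The site of E2F factors, which control genes of DNA replication, was searched as TTTCCCGC or TTTGGCGC on both strands. It occurred within 250 bases of 0.958% of genes, and among the members 3 times ahead of *SMR6* and once ahead of *SMR7*. The *SMR6* window is shown with the 3 matches in capitals, all of them on the opposite strand, and it overlaps AT5G06065, a long non-coding RNA gene on that strand.
*SMR6*, chr5:16201892-16202141, plus strand: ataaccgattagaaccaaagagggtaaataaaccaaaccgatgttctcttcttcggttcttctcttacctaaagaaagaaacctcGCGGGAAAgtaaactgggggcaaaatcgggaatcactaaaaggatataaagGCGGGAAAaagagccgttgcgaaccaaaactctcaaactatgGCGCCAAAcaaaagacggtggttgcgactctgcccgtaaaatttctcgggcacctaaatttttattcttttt

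Of the other motifs searched on both strands, the core of the mitosis-specific activator element bound by MYB3R factors, AACGG, was found within 250 bases of *SMR2*, *SMR4* and *SMR6*, and of 20.6% of genes. The G-box, CACGTG, was found within 250 bases of *SMR5*, and of 6.49% of genes. The L1 box of epidermal homeodomain factors, TAAATGTA or TAAATGCA, was found within 1000 bases of none of the 9 members, and of 15.8% of genes.

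Transcript levels of the members moved in both directions. *SMR4*, *SMR7*, *SMR6* and *SMR1* were up-regulated in *mdf-1*, *SMR5*, *SMR8*, *SIM* and *SMR3* were down-regulated, and *SMR2* did not pass the test. Differences between genotypes were tested with edgeR's quasi-likelihood test, and p-values were adjusted by the Benjamini-Hochberg method over the 22397 genes tested, with 0.05 as the threshold. Levels are given as CPM, the count relative to the size of the library, after scaling of the libraries by the trimmed mean of M-values (TMM). Of all genes tested, 67.4% passed the threshold, 33.5% as higher in *mdf-1* and 33.9% as lower. The members' counts of 4 higher and 4 lower of 9 lie near that background, and are read here as a description of single genes and not as a property of the family. The groups did not overlap in CPM for 8 of the 9 members, as for 73.2% of all genes tested. Among the 820 tested genes that have no intron and lie within the members' range of length and mean count, 32.4% were higher and 35.5% lower. The members had a median log2 fold change of -0.01, beside 0.01 over the 22397 genes.

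**Figure D1:**
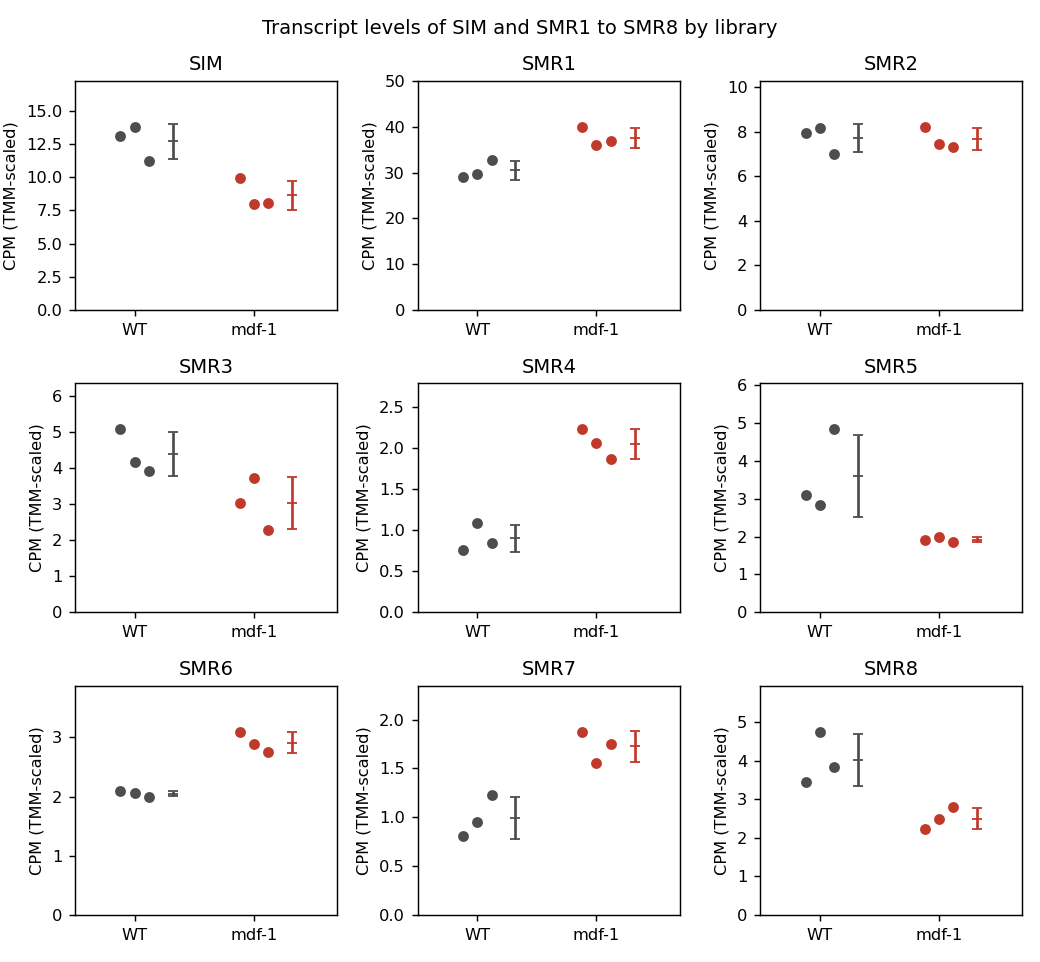
TMM-scaled CPM (vertical axes, each starting at 0) of the 9 members in the 3 WT (grey) and 3 *mdf-1* (red) libraries, with 1 point per library and the mean ± SD beside the points. The genotypes overlap only in *SMR2*; *SMR4*, *SMR6*, *SMR7* and *SMR1* are higher in *mdf-1*, and *SIM*, *SMR3*, *SMR5* and *SMR8* are lower.

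*SMR4*, *SMR5* and *SMR7* are the members known to be induced by DNA damage through SOG1. *SMR4*, which also slows the cell cycle in the stomatal lineage, was counted 95, 86 and 82 times in the *mdf-1* libraries and 38, 54 and 45 times in the WT libraries. Every *mdf-1* library lay above every WT library. Its level was 2.05 ± 0.183 CPM in *mdf-1* and 0.9003 ± 0.168 CPM in WT (mean ± SD, n = 3 each). This was a 2.27-fold increase (log2 fold change 1.18, standard error 0.20, adjusted p = 0.00109), the largest fitted change of the 9 members, and 18.2% of all genes tested changed by more in either direction. The counts behind it are low, and the lowest, 38, has an exact 95% Poisson interval of 26.9 to 52.2 for counting error alone. The increase passed the test under all 14 alternative settings (other scalings, filters and tools, a stricter threshold, a replicate term and each library left out), with log2 fold changes from 1.04 to 1.34.

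*SMR7* was counted 80, 65 and 77 times in *mdf-1* and 40, 47 and 65 times in WT. In CPM the lowest *mdf-1* library, replicate 2 at 1.56, stayed above the highest WT library, replicate 3 at 1.23, although both were counted 65 times. *SMR7* was thus 1.73-fold higher in *mdf-1* (1.73 ± 0.161 against 0.992 ± 0.214 CPM, mean ± SD, n = 3 each; log2 fold change 0.79, standard error 0.22, adjusted p = 0.0114). The 95% confidence interval of the log2 fold change ran from 0.29 to 1.29.

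*SMR5* moved the other way. It was counted 81, 83 and 82 times in *mdf-1* and 154, 141 and 256 times in WT. The 3 *mdf-1* libraries were nearly equal, the WT libraries were all higher, and WT replicate 3 stood well above the other WT libraries. The level was 1.91 ± 0.0641 CPM in *mdf-1* and 3.59 ± 1.08 CPM in WT (mean ± SD, n = 3 each), a 1.87-fold higher level in WT (log2 fold change -0.91, standard error 0.22, adjusted p = 0.00635). Without WT replicate 3 the log2 fold change was -0.64 with an adjusted p of 0.0154.

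The *SMR5* count has a limit of its own. The gene lies with all of its 266 bases inside the first exon of *FTSH10* (AT1G07510), on the opposite strand, in the stretch ahead of the *FTSH10* coding sequence, and whether reads were counted by strand is not given in the sources used here. Without strand, reads of these genes cannot be told apart. On the length-corrected scale of the deposited FPKM (fragments corrected for gene length and library size), *SMR5* stood at 7.11, 7.36 and 7.001 in *mdf-1* and *FTSH10* at 7.31, 6.90 and 6.84. In *mdf-1*, therefore, the *SMR5* FPKM was close to that of the gene around it. In WT *SMR5* was at 11.6, 10.6 and 18.1 and *FTSH10* at 7.21, 6.98 and 7.24. The *FTSH10* value is one of the whole gene, with 6715 exonic bases, of which *SMR5* shares 3.96%. It is therefore not the level of the shared stretch, and the *SMR5* value depends on its annotated length. *FTSH10* itself did not pass the test (log2 fold change -0.02, standard error 0.05, adjusted p = 0.727). Of the 652 genes that lie within 1 exon of an opposite-strand gene with an FPKM of at least 1, 71.2% had less than 0.1 of the level of that gene and 11.2% had 0.8 of it or more. The part of *FTSH10* reads in the *SMR5* count was not tested.

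**Figure D2:**
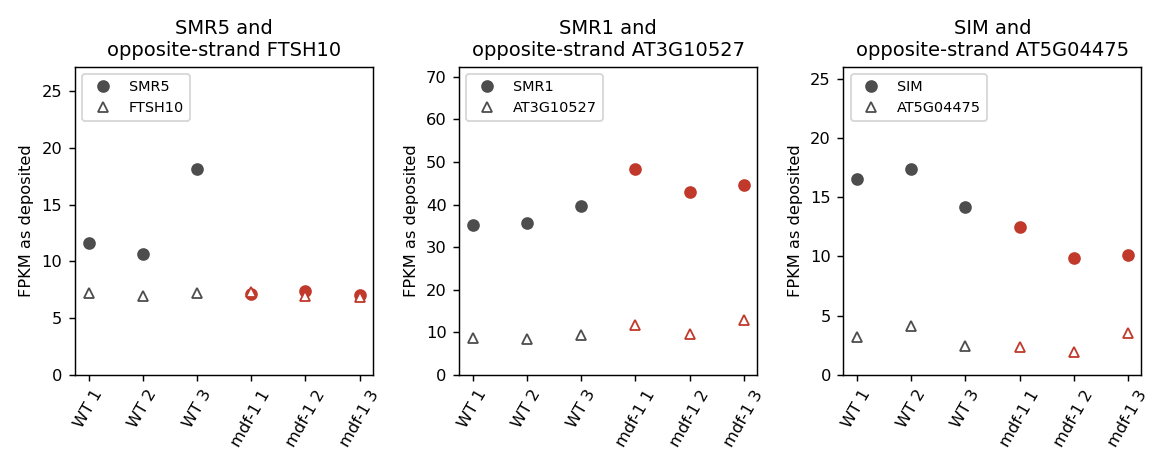
FPKM as deposited (vertical axes, starting at 0) of *SMR5*, *SMR1* and *SIM* (filled circles) and of the annotated gene that overlaps each on the opposite strand (open triangles), 1 point per library, WT in grey and *mdf-1* in red. *SMR5* lies above *FTSH10* in all 3 WT libraries and on it in all 3 *mdf-1* libraries, whereas *SMR1* and *SIM* lie above their partners in every library.

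*SIM*, the founding member, represses mitosis in trichomes as they endoreplicate. It was counted 423, 332 and 354 times in *mdf-1* and 651, 684 and 596 times in WT. All *mdf-1* libraries were below all WT libraries, with replicate 1 the highest of the *mdf-1* libraries at 9.91 CPM and replicate 3 the lowest of WT at 11.2 CPM. *SIM* was 1.47-fold higher in WT (12.7 ± 1.32 against 8.63 ± 1.11 CPM, mean ± SD, n = 3 each; log2 fold change -0.56, standard error 0.12, adjusted p = 0.00334). The call held under all 14 alternative settings. Of its 792 bases, 249 are shared with AT5G04475 on the opposite strand, which was at 1.89 to 4.12 FPKM and did not pass the test (log2 fold change -0.30, adjusted p = 0.428). Of 8 regulators and markers of trichomes, 7 were also lower, beside 33.9% of all genes tested. They included *GL3* (log2 fold change -2.28) and *MYB106* (-2.11), whereas *TTG1* at 0.03 did not pass. The summed level of the 8 was 46.1 to 48.8 CPM in *mdf-1* and 67.3 to 69.9 CPM in WT, and none was at 0 in any library. *TTG1* alone made up 33.8 to 34.1 CPM of it in *mdf-1* and 32.03 to 34.2 CPM in WT, and the other 7 genes summed to 12.0 to 15.0 CPM and 35.3 to 36.6 CPM, respectively. Of 10 root markers, 9 were also lower, beside the same 33.9%. The summed level of the 10 was 70.6 to 77.0 CPM in *mdf-1* and 137 to 150 CPM in WT. Without *SCR*, the most abundant of them, the sums were 30.4 to 37.1 CPM and 89.6 to 104 CPM. The part of these cell types in the *SIM* difference was not tested.

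*SMR1*, also known as *LGO*, is required for the giant endoreplicated cells of the sepal epidermis and had the highest level of the members per length. It was counted 1707, 1505 and 1622 times in *mdf-1* and 1443, 1471 and 1739 times in WT. The raw counts overlapped, but in CPM *mdf-1* (40.0, 36.0 and 36.8) lay above WT (29.0, 29.6 and 32.8). The level was 37.6 ± 2.12 CPM in *mdf-1* and 30.5 ± 2.01 CPM in WT (mean ± SD, n = 3 each), a 1.23-fold increase (log2 fold change 0.30, standard error 0.07, adjusted p = 0.00453). With libraries scaled to their total counts, which shifted the median log2 fold change over the 22397 genes to -0.14 and the share of higher calls among all calls from 49.7% to 37.3%, the *SMR1* difference was 0.16 and no longer passed (adjusted p = 0.0888). The annotated gene AT3G10527 lies within *SMR1* on the opposite strand over 333 of its 826 bases, and was also higher in *mdf-1* (log2 fold change 0.38, adjusted p = 0.0475). The limit on strand given for *SMR5* applies to the shared bases of *SMR1* and *SIM* as well.

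The regulators that act with *SMR1* in giant cell formation went in the opposite direction. All 5 listed were lower in *mdf-1*, beside 33.9% of all genes tested. Among them were *ATML1*, the homeodomain factor of the epidermis (log2 fold change -1.07), *ACR4*, a receptor kinase (-1.12), and *DEK1*, a membrane calpain (-1.10). The summed level of the 5 was 161 to 189 CPM in *mdf-1* and 334 to 350 CPM in WT, with none at 0.

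*SMR2*, *SMR3*, *SMR6* and *SMR8* are less studied members of the family. *SMR8* was counted 95, 104 and 123 times in *mdf-1* and 172, 236 and 204 times in WT, and no *mdf-1* library reached the lowest WT library. It was 1.61-fold higher in WT (4.02 ± 0.666 against 2.50 ± 0.282 CPM, mean ± SD, n = 3 each; log2 fold change -0.68, standard error 0.17, adjusted p = 0.00663), and passed under all 14 alternative settings.

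*SMR6* was counted 132, 121 and 121 times in *mdf-1* and 104, 102 and 106 times in WT, the smallest relative spread of any member in WT. All *mdf-1* libraries were above all WT libraries, and the level was 1.42-fold higher (2.91 ± 0.175 against 2.05 ± 0.0472 CPM, mean ± SD, n = 3 each; log2 fold change 0.51, standard error 0.14, adjusted p = 0.0112).

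*SMR3* was counted 129, 156 and 101 times in *mdf-1* and 252, 206 and 208 times in WT. The groups came close, with *mdf-1* replicate 2 at 3.73 CPM and WT replicate 3 at 3.92 CPM. *SMR3* was 1.45-fold higher in WT (4.38 ± 0.607 against 3.02 ± 0.720 CPM, mean ± SD, n = 3 each; log2 fold change -0.54, standard error 0.20, adjusted p = 0.0376). This call rested on single libraries, since the adjusted p rose to 0.0675 without *mdf-1* replicate 1, 0.0696 without *mdf-1* replicate 3, 0.134 without WT replicate 1 and 0.0663 without WT replicate 2.

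*SMR2* was counted 351, 311 and 323 times in *mdf-1* and 395, 406 and 372 times in WT, and was the only member whose groups overlapped in CPM. Its level was 7.67 ± 0.489 CPM in *mdf-1* and 7.71 ± 0.619 CPM in WT (mean ± SD, n = 3 each; log2 fold change -0.01, standard error 0.10, adjusted p = 0.945). The 95% confidence interval of the log2 fold change ran from -0.24 to 0.22, and changes within it cannot be told from 0 with these libraries.

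Compared per length, the order of the members differed between the genotypes. In WT *SMR1* (35.1 to 39.6 FPKM) was followed by *SIM* (14.2 to 17.4) and *SMR5* (10.6 to 18.1), which did not differ beyond their spread, and then by *SMR2* (7.30 to 8.51). *SMR3* (4.77 to 6.18) and *SMR8* (3.72 to 5.10) came next and overlapped, and *SMR6*, *SMR7* and *SMR4*, all between 1.04 and 1.81 FPKM, were the lowest and each overlapped its neighbour. In *mdf-1* *SMR1* (43.0 to 48.3), *SIM* (9.89 to 12.5), *SMR2* (7.66 to 8.56) and *SMR5* (7.001 to 7.36) kept apart. The other 5 lay between 2.26 and 4.49 FPKM, each overlapping its neighbour in the order *SMR3*, *SMR4*, *SMR8*, *SMR7* and *SMR6*. *SMR4* thus had the lowest mean of the 9 in WT and lay within this group in *mdf-1*. The place of *SMR5* rests on its annotated length of 266 bases, of which 249 are coding. A transcript longer than annotated would make its FPKM too high. Without length correction *SMR5* was at 3.59 CPM in WT, below *SMR2* (7.71), *SMR3* (4.38) and *SMR8* (4.02).

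The summed FPKM of the 9 members was 90.8, 82.4 and 82.6 in *mdf-1* and 85.4, 87.0 and 92.7 in WT, so the totals overlapped. Their make-up differed. *SMR1* made up 52.2% to 54.0% of the sum in *mdf-1* and 41.1% to 42.7% in WT. *SIM* made up 12.0% to 13.7% and 15.3% to 19.9%, respectively. *SMR5*, with the limits of strand and annotated length given for it, made up 7.83% to 8.93% in *mdf-1* and 12.2% to 19.5% in WT.

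**Figure D3:**
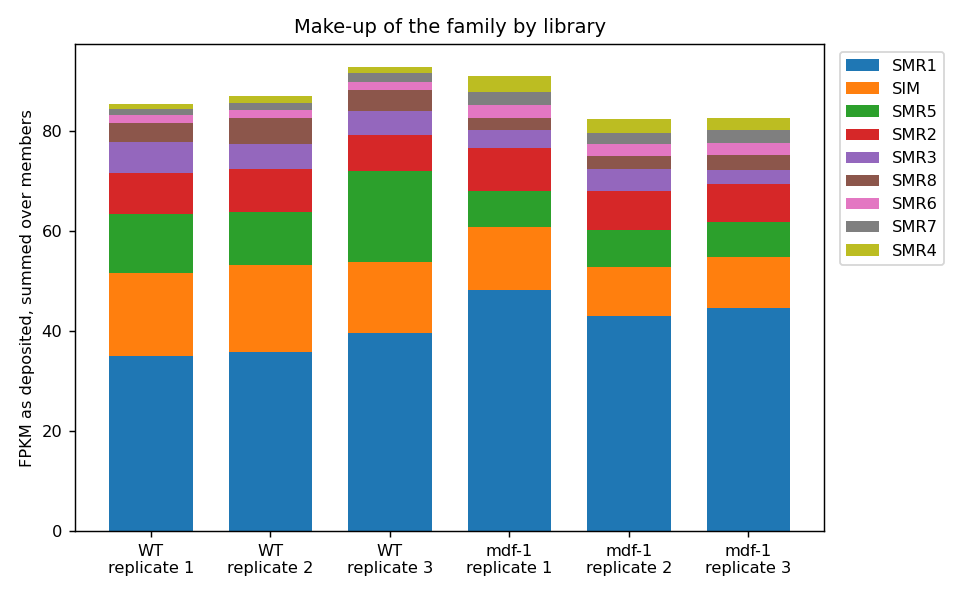
Deposited FPKM of the 9 members stacked for each library (vertical axis, starting at 0), 3 WT libraries on the left and 3 *mdf-1* libraries on the right. The totals lie between 82.4 and 92.7 in all libraries, while the *SMR1* part reaches 43.0 to 48.3 in *mdf-1* and 35.1 to 39.6 in WT.

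The further SIAMESE-related genes *SMR9* to *SMR16* were compared in the same way. Of the 7 tested, 4 (57.1%) were lower in *mdf-1*, beside 33.9% of all genes tested. None was higher and 3 did not pass, with a median log2 fold change of -0.475. Of these 3, *SMR16* was counted 13 to 20 times per library and *SMR12* 21 to 29 times, so depth limits their test. *SMR9* (-2.24, adjusted p = 7.91e-05) and *SMR14* (-2.01, adjusted p = 5.65e-05) had the lowest fitted values, below that of *SMR5*. In *mdf-1* their counts were low, 19 to 31 for *SMR9* and 22 to 31 for *SMR14*. *SMR15* was counted at most 2 times in any library and was not tested.

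The KIP-related proteins (KRPs) form the other family of plant CDK inhibitors. Of the 7 KRP genes, 3 were higher in *mdf-1*, *KRP1* (log2 fold change 1.43), *KRP2* (1.101) and *KRP6* (0.98), and 2 were lower, *KRP4* (-0.70) and *KRP7* (-0.59). These shares, 42.9% and 28.6%, lie near the 33.5% and 33.9% of all genes tested and are no result about the KRP genes as a group. The 2 that did not pass were *KRP3* (0.25) and *KRP5* (0.09).

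**Figure D4:**
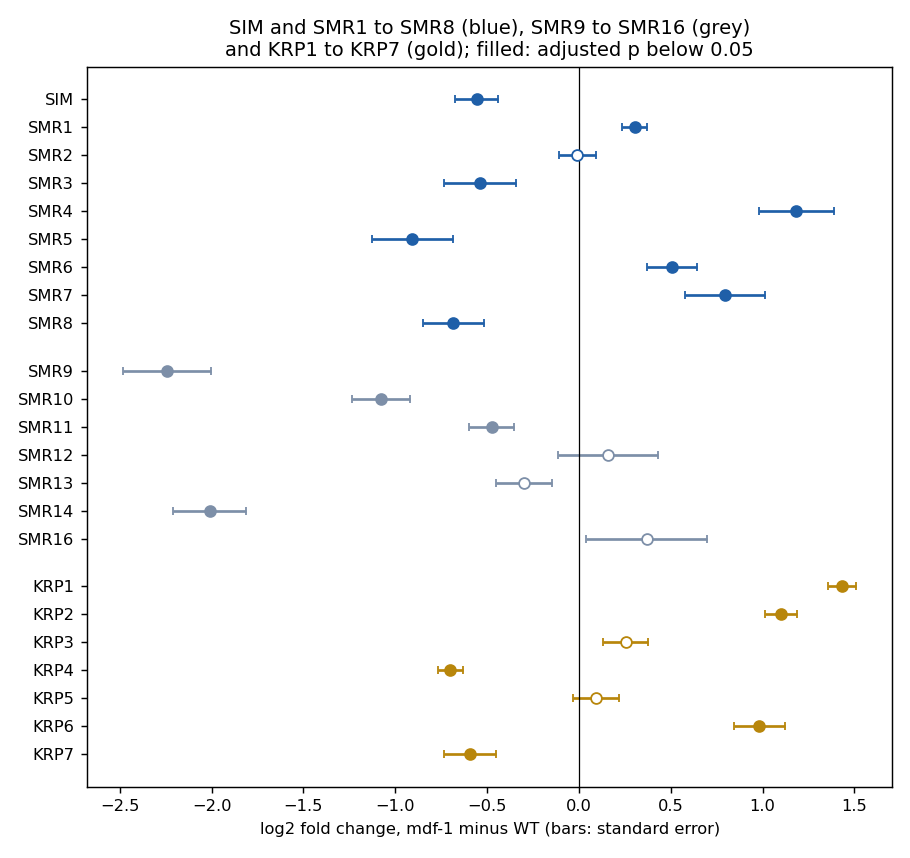
Log2 fold change of *mdf-1* minus WT (horizontal axis, 0 marked) with its standard error for the 9 members (blue), the 7 tested genes of *SMR9* to *SMR16* (grey) and *KRP1* to *KRP7* (gold). Filled points passed an adjusted p of 0.05; the members range from -0.91 in *SMR5* to 1.18 in *SMR4*.

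Kinases and cyclins, the partners of CDK inhibitors, were listed as 21 genes for CDKs, their CKS subunits and D- and A2-type cyclins. Of these, 11 (52.4%) were lower, beside 33.9% of all genes tested, 3 were higher (14.3%, beside 33.5%) and 7 did not pass, with a median log2 fold change of -0.52. With each library left out in turn, between 9 and 14 of the 21 were lower. *CYCA2;3*, which restrains endoreplication, had the lowest value (-1.46, adjusted p = 1.04e-05), followed by *CYCD6;1* (-1.32) and *CYCD3;1* (-0.996). *CDKA;1*, the main CDK, was at 0.03 and did not pass (adjusted p = 0.639). *CYCD2;1* (0.73), *CKS1* (0.51) and *CYCD3;3* (0.48) were higher.

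Genes of DNA damage signalling, the pathway that controls *SMR4*, *SMR5* and *SMR7*, numbered 17. Of these, 5 (29.4%) were higher, 4 (23.5%) lower and 8 did not pass, with a median log2 fold change of 0.16. Both shares lie below those of all genes tested, 33.5% and 33.9%, so the genes named below are described singly. *SOG1* itself was at 0.11 and did not pass (adjusted p = 0.199). *ANAC044*, a SOG1 target that encodes a related NAC factor, was higher (log2 fold change 2.43), and *ANAC085* was counted 112, 88 and 131 times in *mdf-1* against 4, 3 and 3 times in WT. *RAD17*, a checkpoint gene, was higher at 0.83. The kinase genes *ATR* (-2.06) and *ATM* (-1.31), and *PARP1* (-1.02), were lower.

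Endocycle regulators, 18 genes that promote or limit endoreplication, held 1 higher gene, *DPA* (log2 fold change 0.61), 6 lower and 11 that did not pass, with a median of -0.13. The share of lower genes, 33.3%, is that of all genes tested (33.9%), and the share of higher genes was 5.56%. *CDT1B*, a replication licensing factor (-1.01), *CCS52B*, an activator of the anaphase-promoting complex (-1.004), and *RBR1*, the retinoblastoma homologue (-0.71), were the lowest. *CCS52A1*, the activator best known for its role in endoreplication, was at 0.04 and did not pass. In the stomatal lineage, in which *SMR4* acts, *TMM* (-1.43) and *SPCH* (-0.94) were lower, *FAMA* was higher (0.57) and 3 of the 6 genes did not pass. These shares were 33.3% lower and 16.7% higher, beside 33.9% and 33.5% of all genes tested. The summed level of the 6 was 48.5 to 55.4 CPM in *mdf-1* and 59.3 to 61.7 CPM in WT, with none at 0, while *SMR4* was higher in *mdf-1*. *FAMA* alone made up 31.0 to 34.0 CPM of this sum in *mdf-1* and 20.9 to 23.3 CPM in WT. The sum therefore does not show the size of the fall in *TMM* and *SPCH*. Of 8 leaf markers, 3 were higher (37.5%, beside 33.5% of all genes tested), 1 was lower (12.5%, beside 33.9%) and 4 did not pass.

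The genes whose levels were most like those of the members with the largest change each way were taken from tested genes with a mean count of at least 100, by Pearson's r of log2 CPM over the 6 libraries. For *SMR4* they were *PYRB* (AT3G20330), AT2G30105 and *SCL3* (AT1G50420), each with r = 0.998, and 4682 of 18313 genes compared had r above 0.9. For *SMR5* they were AT5G40490 (r = 0.992), AT1G11960 (0.991) and AT1G64330 (0.987), with 682 of 18312 genes above 0.9. The points share the genotype difference, so these values describe a common pattern over 6 libraries and no more.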

How the data were processed

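Complete seedlings of *mdf-1* and WT, 3 libraries each, were grouped by the genotype in the labels. Per the submitters' processing notes, reads were handled with fastp, HISAT2 and featureCounts on TAIR10; versions and the strand setting are not given in the sources used here. The authors deposited counts per gene, without normalization, and FPKM values, which are relative to gene length and scaled library size. The FPKM were used only to compare levels between genes. The 6 columns of size-factor-normalized values and the columns of the authors' own comparison (fold changes and p-values) were not used.

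Differences in counts were tested with edgeR 4.0.16 and limma 3.58.1 under R 4.3.3 (filterByExpr, TMM, robust glmQLFit, glmQLFTest, Benjamini-Hochberg over 22397 genes). The standard error of a log2 fold change is its size over the root of F. Alternatives were DESeq2 1.42.0, scaling by total count, RLE or upper quartile, a replicate block, each library left out, an adjusted p below 0.01, and a filter of 10 counts per library or none. The steps were tested on simulated data. No replicates agreed within sampling noise, so none was a repeated library. Python 3.11.15 was used for sequences, from the RefSeq TAIR10.1 genome, in which 32532 of 32548 matched genes have the coordinates of the deposited table. Gene models gave introns, overlaps and starts.

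A count of 0 would allow up to 3 counts, which is 0.0599 to 0.0671 CPM of a library. Intervals and this floor cover counting error only. All 9 members were named, with up to 3 genes each way per list, *MDF*, and the 3 genes most like the most changed members. The members and the lists were chosen with earlier results of these data known.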

Additional observations from a re-analysis of the deposited data

How the results depend on the processing

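*SIM*, *SMR4*, *SMR5* and *SMR8* kept their direction and call under all 14 alternatives. With total-count scaling *SMR1* lost its call (log2 fold change 0.16, adjusted p = 0.0888), leaving 3 members higher, and more genes were lower in 5 lists: 9 endocycle regulators (6 with TMM), 13 CDK and cyclin genes (11), 5 of the further SIAMESE-related genes (4), 4 stomatal lineage markers (2) and 2 leaf markers (1). At an adjusted p below 0.01 the members *SMR3* (-0.54, adjusted p = 0.0376), *SMR6* (0.51, adjusted p = 0.0112) and *SMR7* (0.79, adjusted p = 0.0114) no longer passed, which left 2 members higher and 3 lower. Leaving out each library in turn gave log2 fold changes from -0.715 to -0.381 for *SMR3*, whose call was lost in 4 of these 6 fits, and from -0.0758 to 0.0353 for *SMR2*, which was never called and reversed its sign without *mdf-1* replicate 2 (0.018), *mdf-1* replicate 3 (0.017), WT replicate 1 (0.011) or WT replicate 2 (0.0353).

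The labels give both genotypes replicate numbers 1 to 3 without saying that a number marks a shared batch. Deviations of same-numbered libraries from their group means correlated at 0.0443, -0.0035 and 0.0805, the last being the highest value of any pair. *mdf-1* replicate 1 correlated at 0.0484 with WT replicate 2, close to its 0.0443 with WT replicate 1. With 3 libraries per genotype, these values cannot show whether a number marks a shared batch. With a replicate block 7302 genes were higher and 7441 lower, against 7504 and 7585 without it, and 4 members were higher and 4 lower, as before. Members with fewer than about 100 counts per library, *SMR4* and *SMR7* above all, are limited by depth.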
